A study of Mus musculus with 6 samples.

Results

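The CCR4-NOT complex shortens the poly(A) tails of messenger RNAs, the step that opens most mRNA decay. It is built on the large scaffold Cnot1. The NOT module, Cnot2 and Cnot3, and the module of Cnot10 and Cnot11 bind that scaffold. Its nucleases come from 2 families. Cnot6 and Cnot6l belong to the exonuclease-endonuclease-phosphatase family, whereas Cnot7 and Cnot8 are DEDD-type nucleases, and the complex holds a single paralog of each pair. Cnot4 is a RING-type ubiquitin ligase named with the complex and bound less stably to it in mammals. In mouse oocytes, transcription is largely silent during meiotic maturation and many stored maternal mRNAs are deadenylated and degraded, with CCR4-NOT and its oocyte adaptor Btg4 among the known effectors.

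The 10 subunits were chosen by name, and their probe sets by an array annotation that gave exactly 1 of these symbols. This found 29 of 21646 tested probe sets, for 9 of the 10 subunits, among 11429 genes in all. The 2 probe sets listed for Cnot1 also carried another symbol, Gm6158, so Cnot1 was not analysed here. Cnot2 and Cnot4 had 5 probe sets each, Cnot6 and Cnot6l 4 each, Cnot7 and Cnot10 3 each, Cnot3 and Cnot8 2 each, and Cnot11 had 1.

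Mouse oocytes of 2 stages were compared. Mature oocytes, arrested in the second meiotic metaphase (MII), had a visible polar body. They came from oviducts of mice given 5 IU of equine and then 5 IU of human chorionic gonadotropin, the ovulatory signal, 14 h before collection. Immature oocytes with an intact germinal vesicle (GV), arrested in meiotic prophase, were taken from large antral follicles 44 to 46 h after equine chorionic gonadotropin alone. All mice were 22 to 24 days old, and the collection medium of both stages held 5 µM milrinone, which blocks the phosphodiesterase PDE3. MII oocytes were freed of cumulus cells with hyaluronidase, and GV oocytes by pipetting. Each stage had 3 biological replicates of 300 pooled oocytes, and 10 ng of total RNA from each was amplified over 2 rounds, with a commercial primer mix in place of oligo(dT), and hybridised to 1 array. With a fixed RNA input, the values show the share of a transcript in the RNA, and less of a transcript per oocyte cannot be told apart from more of the others.

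The values were the deposited log2 expression values, and MII was compared with GV by limma over all probe sets, with a call at a Benjamini-Hochberg adjusted p under 0.05. Over all probe sets, 45.0% were called, 10.9% higher and 34.1% lower in MII. The 3 MII and 3 GV values did not overlap for 54.0%. Of 12 oocyte markers, 10 were above the array median on every array, all but Ddx4 and Figla. Their summed linear level was 25000 to 26300 on MII arrays and 32200 to 33100 on GV arrays, with 2 called higher and 6 lower and a median change of -0.65. Of 14 granulosa and cumulus markers 8 were measured, of which 0 were above the median on every array and 6 were below it on every array. The summed level of these 8 was 172 to 193 on MII arrays and 259 to 282 on GV arrays, and 2 of them, Fshr and Inhba, were called lower, with a median change of -0.32. The values did not reach 0 for any probe set, so they cannot show whether a marker was absent. The part of these markers in the results below was not tested.

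Of the 29 CCR4-NOT probe sets, 4 were called higher in MII (13.8%, against 10.9% of all), 12 lower (41.4%, against 34.1%) and 13 in neither direction. The 2 stages did not overlap for 17 of them (58.6%, against 54.0%). The split depended on the scale between arrays, with 16 higher and 4 lower when array medians were made equal (55.5% and 19.9% of all probe sets), and 0 higher and 24 lower when the spiked poly-A controls were (0.3% and 84.9% of all). As deposited, the shares lay near those of all probe sets, and the median change was -0.12 against -0.15 over all probe sets (MII minus GV, log2). The steepest falls were in 2 probe sets of Cnot4 and 2 of Cnot2, while the other 6 probe sets of these genes had changes between -0.69 and 0.76. Of the 29, 22 were above the array median on all 6 arrays and 5 were below it on all 6.

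**Figure D1:**
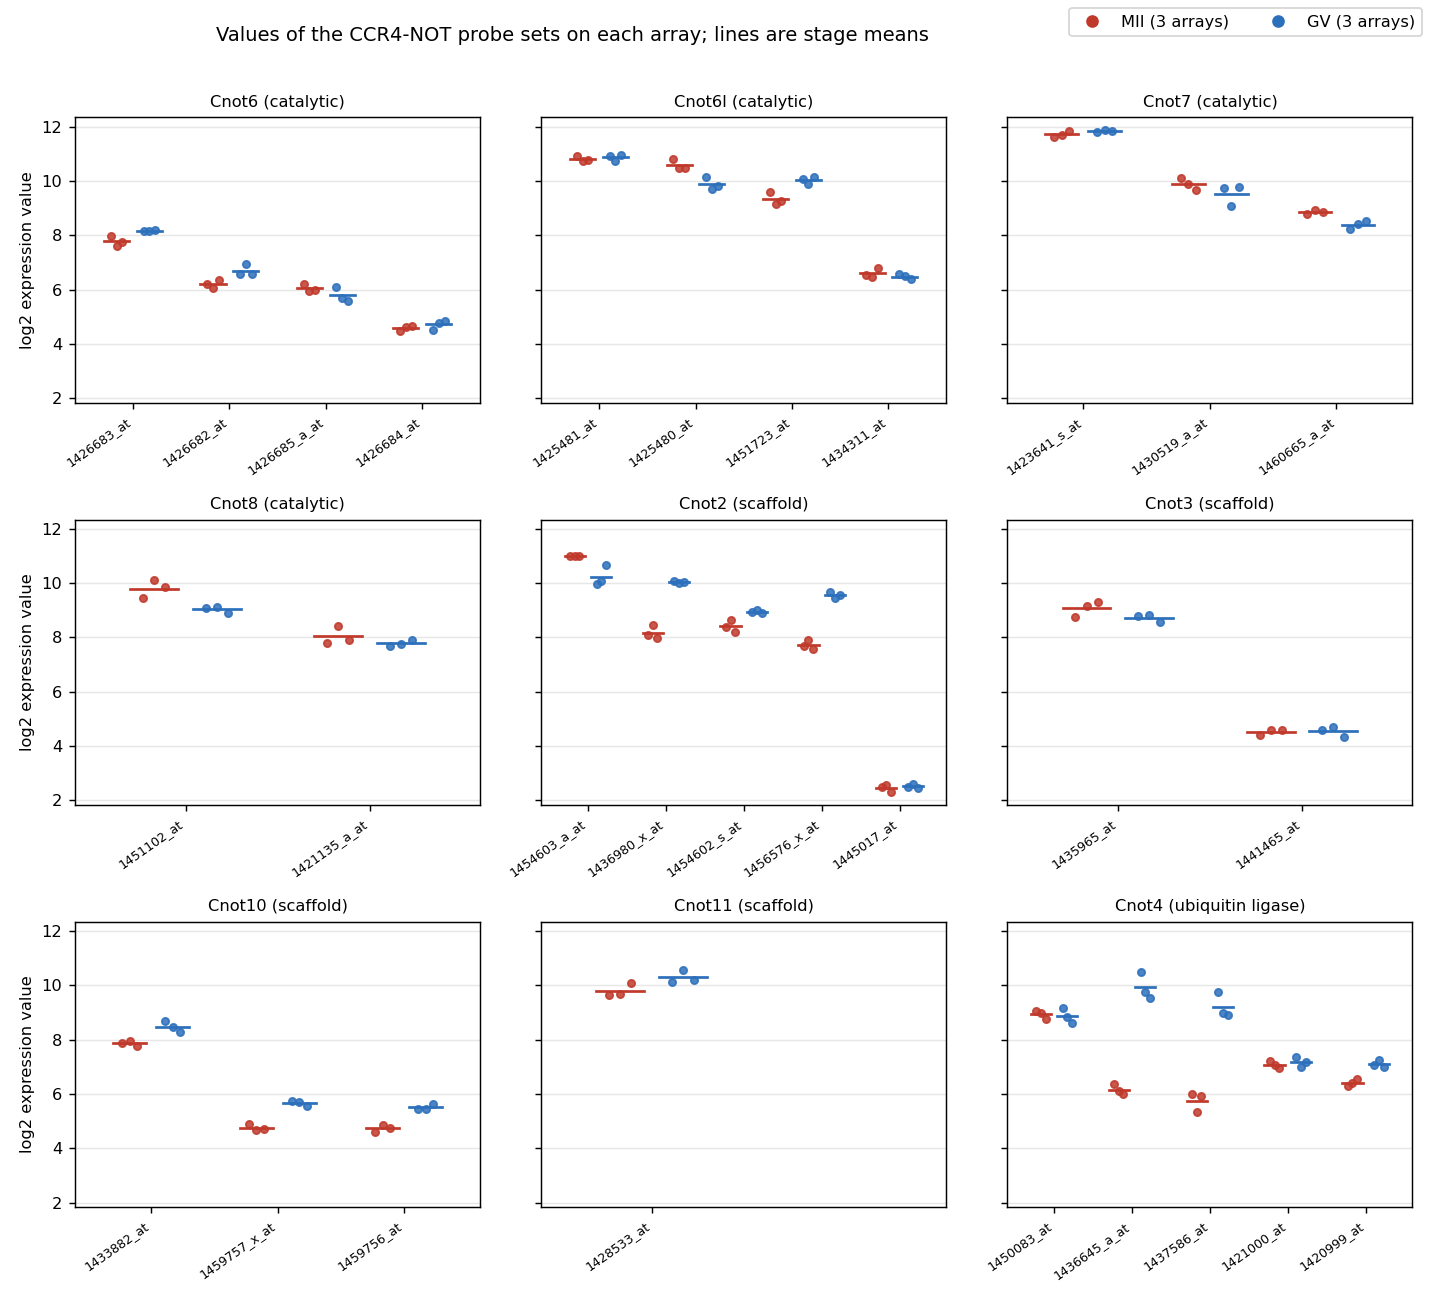
Log2 expression values (vertical axes) of the 29 probe sets on each of the 3 MII arrays (red) and 3 GV arrays (blue), 1 panel per gene, with horizontal lines at the stage means. The stages are far apart for 2 probe sets of Cnot4 and 2 of Cnot2, and lie close together for the brightest probe sets of Cnot6l, Cnot7 and Cnot4.

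Among the catalytic subunits, Cnot6l is the nuclease of the exonuclease-endonuclease-phosphatase pair that is prominent in mouse oocytes. Its brightest probe set, 1425481_at, read 10.90, 10.75 and 10.77 on the MII arrays and 10.93, 10.73 and 10.94 on the GV arrays. The stages overlapped, and the change was -0.06 ± 0.14 (SE, 3 arrays per stage), with a 95% confidence interval from -0.36 to 0.25 (limma adjusted p = 0.77).

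Another Cnot6l probe set, 1425480_at, read 10.81, 10.48 and 10.46 in MII against 10.16, 9.71 and 9.83 in GV. All MII values were above all GV values, and it was called higher, 1.61-fold (log2 change 0.69 ± 0.17 SE, limma adjusted p = 0.0075). A further one, 1451723_at, went the other way, with 9.61, 9.15 and 9.25 in MII against 10.08, 9.87 and 10.14 in GV, again without overlap (-0.70 ± 0.16, limma adjusted p = 0.0057). This call, and with it the opposite calls in Cnot6l, was lost once array medians were equal (-0.07) or values quantile-normalized (-0.33). The 3 probe sets were designed from the same sequence record, so the annotation gives no separate transcript for the rise and the fall. The last Cnot6l probe set, 1434311_at, changed by 0.13 and was not called.

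Cnot6, the paralog of Cnot6l, had lower readings in MII on its brightest probe set, 1426683_at. It read 7.98, 7.59 and 7.77 in MII against 8.14, 8.15 and 8.19 in GV. The stages did not overlap, but the change of -0.38 ± 0.14 missed the threshold (limma adjusted p = 0.057), with an interval from -0.70 to -0.06. It was called only without MII replicate 1 (-0.48, adjusted p = 0.03) and with the poly-A controls made equal (-1.25). Its neighbour 1426682_at read 6.19, 6.05 and 6.34 in MII against 6.58, 6.93 and 6.57 in GV and was called lower (-0.50 ± 0.16, limma adjusted p = 0.025). That call was lost without GV replicate 2 (-0.38, adjusted p = 0.097), MII replicate 1 (-0.49) or MII replicate 2 (-0.43). The other two Cnot6 probe sets were at 0.26 and -0.13, neither called.

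Cnot7 is one of the DEDD nucleases. Its brightest probe set, 1423641_s_at, read 11.60, 11.69 and 11.85 in MII and 11.81, 11.86 and 11.84 in GV. The stages overlapped, and the change was -0.12 ± 0.13, with an interval from -0.42 to 0.18 (limma adjusted p = 0.50). A dimmer Cnot7 probe set, 1460665_a_at, read 8.80, 8.93 and 8.86 in MII against 8.23, 8.40 and 8.54 in GV. It was called higher without overlap, 1.39-fold (0.47 ± 0.14, limma adjusted p = 0.019), a call lost without GV replicate 1 (0.39, adjusted p = 0.064) or MII replicate 2 (0.44, adjusted p = 0.062). The remaining one, 1430519_a_at, had a similar change of 0.37 but a GV spread of 0.40 (SD, n = 3) and was not called.

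Cnot8, the paralog of Cnot7, read 9.44, 10.10 and 9.84 in MII against 9.09, 9.12 and 8.90 in GV on its brightest probe set, 1451102_at. Every MII value exceeded the GV values, and it was called higher, 1.69-fold (0.76 ± 0.18, limma adjusted p = 0.0063). The other Cnot8 probe set, 1421135_a_at, read 7.80, 8.43 and 7.90 in MII against 7.70, 7.77 and 7.92 in GV. It pointed the same way at 0.25 ± 0.18, with overlap, and was not called.

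Within each nuclease pair, the paralog with the higher change was Cnot8 over Cnot7 and Cnot6l over Cnot6, on the brightest probe sets. The change of Cnot8 exceeded that of Cnot7 by 0.88 (pooled SD 0.23), and that of Cnot6l exceeded that of Cnot6 by 0.32 (pooled SD 0.12). Each difference had a 2-sided exact permutation p of 0.1, the smallest that 3 arrays against 3 allow, so neither could pass 0.05. The order did not hold for every probe set. Cnot7 at 0.47 and 0.37 on its dimmer probe sets lay above Cnot8 1421135_a_at at 0.25. Cnot6l 1451723_at at -0.70 lay below the brightest Cnot6 probe set at -0.38, whereas 1425480_at at 0.69 and 1434311_at at 0.13 lay above it.

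Of the scaffold subunits, Cnot2 gave the widest split. Its brightest probe set, 1454603_a_at, read 10.98 to 11.01 on the 3 MII arrays against 9.97, 10.09 and 10.66 in GV. It was called higher without overlap, 1.69-fold (0.76 ± 0.18, limma adjusted p = 0.0071), and GV replicate 3 was the closest to the MII arrays. Its GV spread was 0.37 and its MII spread 0.01 (SD, n = 3 each).

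A dimmer Cnot2 probe set, 1436980_x_at, read 8.10, 8.44 and 7.97 in MII against 10.06, 10.01 and 10.05 in GV. It was called lower, 3.65-fold (-1.87 ± 0.15, limma adjusted p = 4.2e-06). Another, 1456576_x_at, moved nearly alike, with 7.70, 7.92 and 7.58 in MII against 9.67, 9.44 and 9.56 in GV (-1.82 ± 0.15, adjusted p = 3.5e-06). By the maker's naming, the suffix _x_at marks probe sets in which some probes also match other sequences, so this fall may include transcripts other than Cnot2, which was not tested.

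The Cnot2 probe set 1454602_s_at, designed from the same record as the rising one, read 8.41 ± 0.22 in MII against 8.94 ± 0.05 in GV (SD, n = 3 each), without overlap (-0.53 ± 0.15, limma adjusted p = 0.016). That call was lost without GV replicate 2 (-0.50) or MII replicate 3 (-0.42). The last, 1445017_at, lay below the median of all arrays, near the low end of their range, at 2.45 ± 0.13 in MII and 2.52 ± 0.09 in GV (SD, n = 3).

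Cnot3, the partner of Cnot2 in the NOT module, read 8.75, 9.16 and 9.29 in MII against 8.78, 8.82 and 8.55 in GV on 1435965_at. MII replicate 1 lay inside the GV range, and the change of 0.35 ± 0.17 was not called (interval -0.03 to 0.73, limma adjusted p = 0.12). Without that array it was 0.51 and called (adjusted p = 0.031). The dim probe set 1441465_at changed by -0.01.

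The module of Cnot10 and Cnot11 was lower in MII as deposited, on all 4 of its probe sets, although the sign turned for 2 of them, one in each gene, when array medians were made equal. Cnot10 read 7.88, 7.94 and 7.75 in MII against 8.67, 8.47 and 8.28 in GV on 1433882_at, without overlap (-0.62 ± 0.15, a 1.53-fold fall, limma adjusted p = 0.0068). Its other probe sets, 1459757_x_at and 1459756_at, both below the array median on all arrays, were called lower too, at -0.92 and -0.77. They were designed from the same record, and the first carries the suffix _x_at. Both calls were lost with equal array medians (-0.29 and -0.15), and that of 1459756_at also after quantile normalization (-0.24). Cnot11 read 9.63, 9.66 and 10.09 in MII against 10.12, 10.57 and 10.21 in GV, a fall of 1.42-fold that barely passed (-0.50 ± 0.18, limma adjusted p = 0.043). It was not called without GV replicate 2 (-0.37, adjusted p = 0.16), GV replicate 3 (-0.55), MII replicate 1 (-0.42) or MII replicate 2 (-0.44).

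Cnot4, the ubiquitin ligase, held the steepest falls. Probe set 1436645_a_at read 6.38, 6.09 and 5.99 in MII against 10.50, 9.74 and 9.54 in GV. The lowest GV array stood far above the highest MII array. The fall was called, 13.7-fold (-3.77 ± 0.24, limma adjusted p = 6.4e-07). Probe set 1437586_at gave nearly the same picture, with 5.74 ± 0.37 in MII (SD, n = 3) against 9.75, 8.98 and 8.90 in GV, a fall of 11.1-fold (-3.47 ± 0.25, adjusted p = 1.8e-06). Their MII means of 6.15 and 5.74 compare with MII array medians of 5.47 to 5.49, and no measure of background was used, so these folds hold for the deposited values.

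The brightest Cnot4 probe set, 1450083_at, did not share that fall. It read 9.05, 8.96 and 8.76 in MII and 9.16, 8.82 and 8.61 in GV, with overlap, and changed by 0.06 ± 0.17 (interval -0.32 to 0.44, limma adjusted p = 0.80). Probe set 1421000_at overlapped as well, at -0.10 ± 0.15. The remaining one, 1420999_at, read 6.30, 6.39 and 6.54 in MII against 7.07, 7.25 and 6.98 in GV and was called lower, 1.61-fold (-0.69 ± 0.14, limma adjusted p = 0.0027), a call lost in the same 2 scalings (-0.07 and -0.01).

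**Figure D2:**
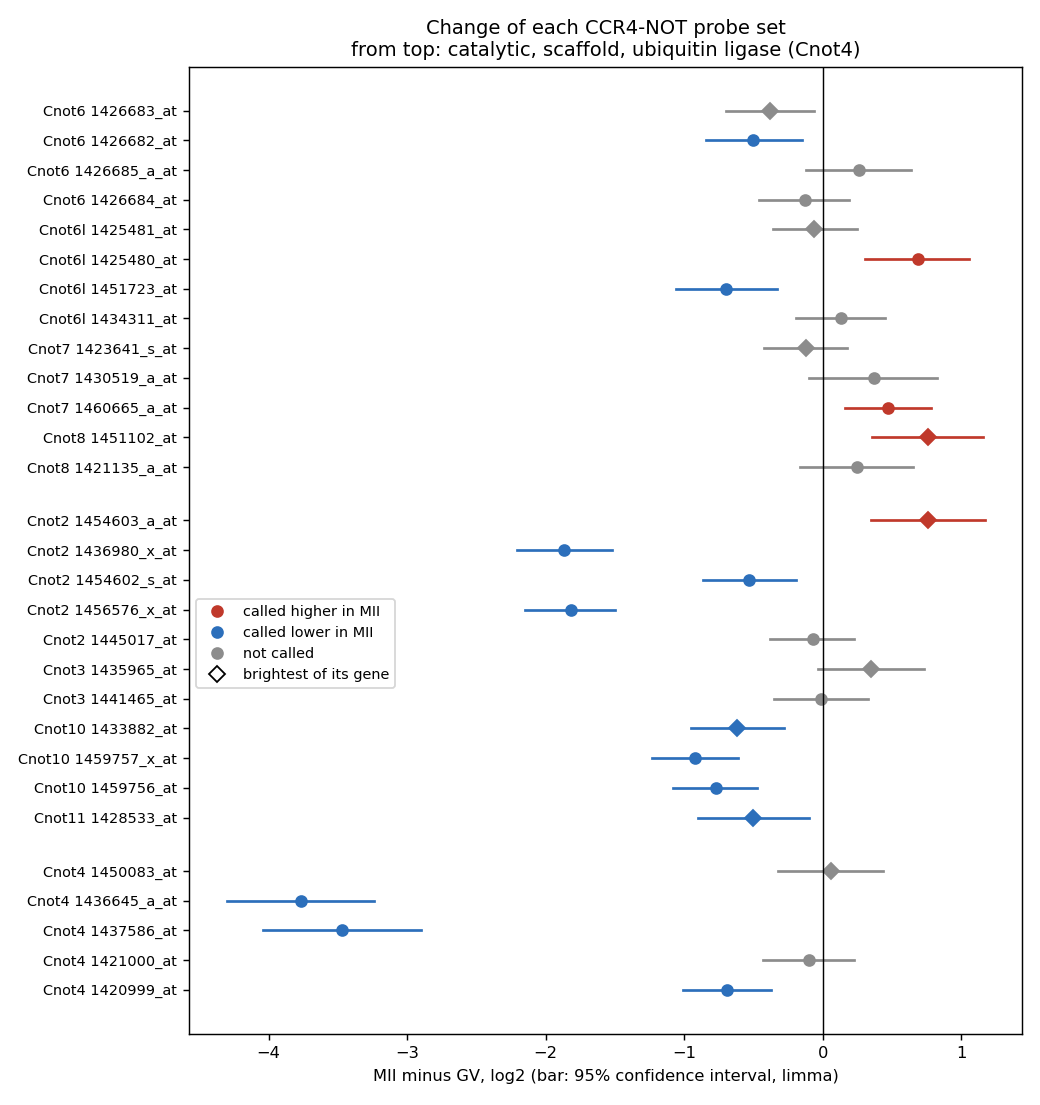
Change of each probe set (horizontal axis, MII minus GV, log2) with its 95% confidence interval from limma, in the order catalytic, scaffold and Cnot4, and with diamonds for the brightest probe set of a gene. Cnot4 spans -3.77 to 0.06 and Cnot2 -1.87 to 0.76, whereas the 3 Cnot10 probe sets lie between -0.92 and -0.62.

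Catalytic and scaffold subunits were then set side by side, the latter being Cnot2, Cnot3, Cnot10 and Cnot11 without Cnot1 itself. Of 13 catalytic probe sets, 3 were called higher, 2 lower and 8 in neither direction, with a median change of 0.13 and a range from -0.70 to 0.76. Of 11 scaffold probe sets, 1 was called higher, 7 lower and 3 in neither direction, with a median of -0.53 and a range from -1.87 to 0.76. The shares over all probe sets were 10.9% higher and 34.1% lower. With the brightest probe set per gene the contrast vanished. The median change was -0.09 over the 4 catalytic genes, of which Cnot8 was called higher, and -0.08 over the 4 scaffold genes, of which Cnot2 was called higher and Cnot10 and Cnot11 lower.

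For brightest probe sets of all genes, 10.5% were called higher and 37.8% lower. The difference between the class medians was -0.01, with a spread between arrays of 0.17 (SD). It was 0.73 with the mean over each gene's probe sets and 0.23 with the brightest probe set not of type _s_at or _x_at. The comparison of the 2 classes thus depended on which probe sets stood for a gene, and it was not tested.

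Probe sets of the same gene were compared directly, as the difference between each and the brightest one within every array. A shift common to an array cancels in this measure. Of 20 such pairs among the subunits, 11 differed in their change (55.0%), against 42.6% of the pairs of all genes (limma on 7649 pairs, Benjamini-Hochberg adjusted p under 0.05). Probe sets called in opposite directions were found for 2 of the 8 genes with several probe sets, Cnot2 and Cnot6l, against 10.8% of such genes overall. These shares were not matched for the number of probe sets. Cnot2 had 5 and Cnot6l 4, whereas 2856 of the 4739 genes with several probe sets had only 2.

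In Cnot4 the probe sets 1436645_a_at and 1437586_at differed from the brightest one by -3.83 ± 0.19 and -3.53 ± 0.24 (SE, limma adjusted p = 2.6e-06 and 8.9e-06). Of the 164 genes with 5 probe sets, 4 had changes that ranged at least as widely as the 3.83 of Cnot4 (2.44%), itself included, and 27 at least as widely as the 2.62 of Cnot2 (16.5%). Among genes with as many probe sets as each, the shares for Cnot6l, Cnot8 and Cnot3 were 42.2%, 52.5% and 61.9%. Those for Cnot7, Cnot6 and Cnot10 were 67.8%, 71.6% and 88%. In Cnot2, 1436980_x_at and 1456576_x_at differed from the brightest by -2.62 and -2.58, and 1454602_s_at by -1.28 ± 0.24 (limma adjusted p = 3.3e-05, 3.6e-05 and 0.0023). In Cnot6l, 1425480_at was above the brightest by 0.74 ± 0.18 (adjusted p = 0.0095) and 1451723_at below it by -0.64 ± 0.17 (adjusted p = 0.015).

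Of the 6 pairs designed from a shared record, in Cnot6, Cnot6l and Cnot2, 4 differed in their change. Among the pairs of all genes, whatever their record, 42.6% did, and the share for shared records alone was not computed. No record was given for the brightest probe sets of Cnot4 and Cnot3, so their pairs could not be sorted in this way. The 3 probe sets of Cnot10 differed by at most -0.30, with no pair called. Cnot8 and Cnot3, with 1 pair each, were not called either (-0.51, adjusted p = 0.061, and -0.37, adjusted p = 0.12). The pairs called were 7 without GV replicate 2 and 7 without MII replicate 2, where the share of all pairs called is not given here. The 6 pairs that were called in all 13 alternatives run were those of the 2 steep Cnot4 probe sets, the same 3 of Cnot2, and 1425480_at of Cnot6l.

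**Figure D3:**
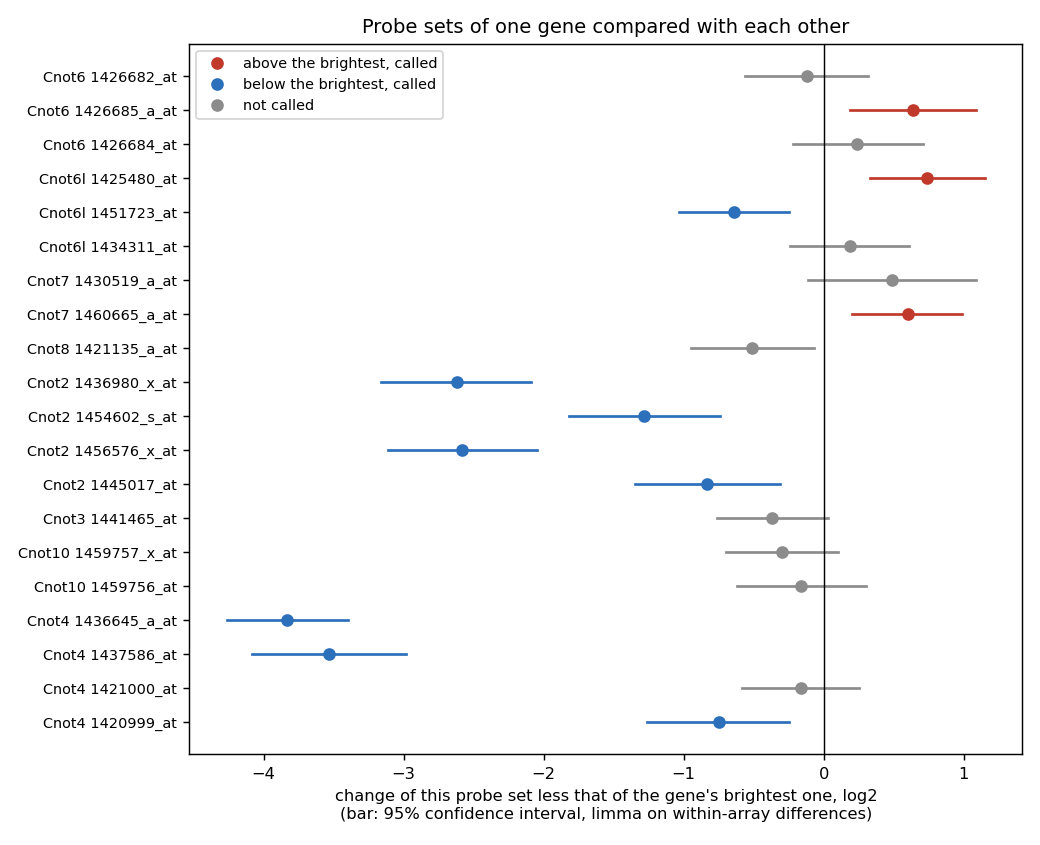
Change of each probe set less that of the brightest probe set of its gene (horizontal axis, log2), with 95% confidence intervals from limma on within-array differences. The Cnot4 pairs at -3.83 and -3.53 and the Cnot2 pairs at -2.62 and -2.58 lie far from 0, and both Cnot10 pairs have intervals that include 0.

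The direction of most members depended on the scale between arrays. Relative to the deposited values, making array medians equal raised the median change of all probe sets by 0.62 and quantile normalization by 0.34. Making the hybridization controls equal lowered it by 0.40, and making the poly-A controls equal by 0.87. The median of the members followed that of all probe sets, at 0.50 against 0.47, 0.20 against 0.19, -0.53 against -0.56 and -0.99 against -1.02 in this order. The number of members called higher was 16, 12, 0 and 0 in the same order, against 55.5%, 34.8%, 0.48% and 0.3% of all probe sets. The number called lower was 4, 5, 12 and 24, against 19.9%, 22.1%, 33.2% and 84.9%, so the members moved much as all probe sets did.

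The falls of 1436645_a_at and 1437586_at in Cnot4 and of 1436980_x_at and 1456576_x_at in Cnot2 were called under all 5 scalings. They ranged from -4.64 to -3.15, from -4.34 to -2.84, from -2.74 to -1.24 and from -2.70 to -1.20. No rise was. The Cnot8 rise of 0.76 became 1.38 under equal array medians and 1.18 after quantile normalization, but only 0.36 with equal hybridization controls and -0.11 with equal poly-A controls, neither called. The Cnot2 rise on 1454603_a_at had values of 1.38, 1.05, 0.35 and -0.12, that of Cnot6l on 1425480_at 1.31, 1.01, 0.28 and -0.18, and that of Cnot7 on 1460665_a_at 1.10, 1.00, 0.07 and -0.40, with calls lost in the same 2 scalings.

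The falls of Cnot10 and Cnot11 were likewise not called on their brightest probe sets with equal array medians (0.01 and 0.12) or after quantile normalization (-0.04 and -0.17). Among the catalytic probe sets 10 were called higher and 0 lower with equal array medians, and 0 and 9 with equal poly-A controls. The scaffold probe sets had 4 higher and 2 lower, and 0 and 10, in the same scalings. Over all probe sets these scalings gave 55.5% higher and 19.9% lower, and 0.3% and 84.9%.

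**Figure D4:**
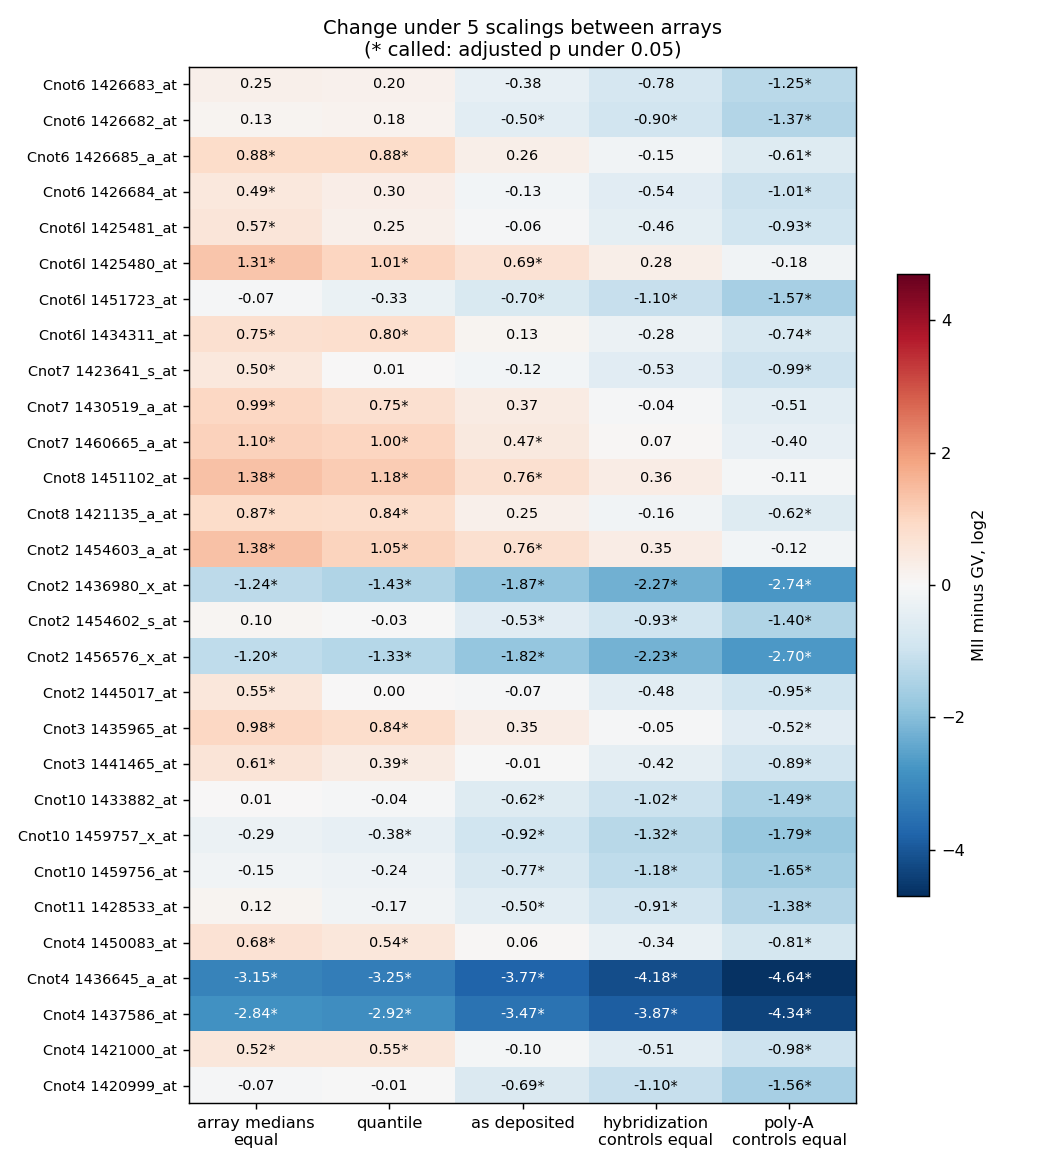
Change of each probe set (MII minus GV, log2, as numbers and colours) under 5 scalings between arrays, with an asterisk for a limma adjusted p under 0.05. The 2 Cnot4 rows from -3.15 to -4.64 and from -2.84 to -4.34 are called throughout, while Cnot8 1451102_at runs from 1.38 to -0.11.

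Other genes of the pathway were read from lists, with the brightest probe set of each gene. Cnot9, a core subunit outside the 10, read 7.38, 7.36 and 8.14 in MII against 7.91, 8.13 and 7.96 in GV. MII replicate 3 stood apart from the other MII arrays, and the change of -0.37 ± 0.21 was not called (limma adjusted p = 0.18), but was -0.63 and called without that array (adjusted p = 0.012). Of 8 other deadenylases 1 was called higher and 1 lower as deposited (10.5% and 37.8% of all genes), 7 and 1 with equal array medians, and 0 and 6 with equal poly-A controls. The shares of all probe sets in these 2 scalings were 55.5% higher and 19.9% lower, and 0.3% and 84.9%. Pan2, the nuclease of the PAN2-PAN3 complex, was at 0.49 ± 0.14 (limma adjusted p = 0.019). Its call was lost without GV replicate 3 (0.40, adjusted p = 0.072), without MII replicate 2 (0.42, adjusted p = 0.075), and with equal hybridization controls (0.09) or poly-A controls (-0.38). The poly(A)-specific ribonuclease Parn fell by 1.38 ± 0.14 (adjusted p = 1.7e-05), a fall called in all 5 scalings. That probe set carries the suffix _x_at, and the dimmer Parn probe set, 1425422_a_at, was called lower too, at -1.16.

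Of 26 genes for proteins that bind or recruit the complex, 20 were measured, of which 1 was called higher and 6 lower (10.5% and 37.8% of all genes), and 13 were not called. With equal array medians 10 were called higher and 3 lower, and with equal poly-A controls 0 and 19. All probe sets had 55.5% higher and 19.9% lower in the first scaling, and 0.3% and 84.9% in the second. Tob1, an antiproliferative adaptor of Cnot7 and Cnot8, read 3.05, 2.59 and 2.54 in MII against 6.89, 6.69 and 7.16 in GV. It was called lower in all 5 scalings, by -4.18 ± 0.18 as deposited (limma adjusted p = 6.9e-08). Its MII values lay far below the array medians, toward the low end of the range, so the size of this fall holds for the deposited values only. Nanos1, an RNA-binding protein that recruits the complex, was called higher at 0.66 ± 0.17 (adjusted p = 0.01), but was not called with equal hybridization controls (0.26) or poly-A controls (-0.21). The call was also lost without moderation of the variance. A dimmer Nanos1 probe set, 1436648_at, below the array median on every array, was at 0.30 and not called. Btg4, the oocyte adaptor, read 11.98, 12.10 and 12.06 in MII and 12.02, 12.14 and 12.15 in GV. Its change of -0.06 ± 0.13 was not called (limma adjusted p = 0.76, interval -0.34 to 0.23). Btg4 was called higher with equal array medians (0.57) and lower with equal poly-A controls (-0.93). It was not called after quantile normalization (0.03) or with equal hybridization controls (-0.46). As deposited, the median change was 0.20 over the other deadenylases and -0.14 over the recruiting proteins, against -0.06 over the 9 subunits and -0.2 over all genes, each by the brightest probe set.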

How the data were processed

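The log2 values were deposited by the authors. RMA and affy are listed as tools, per the submitters' processing notes, without version or order, and no source used here gives the filters. All 6 arrays drew on the same 7077 distinct values, from 1.85 to 13.3, but their distributions differed, and how arrays were scaled to each other stays unknown. The table held 21702 probe sets, of which 56 control features were set aside. Probe sets were named by the array annotation (19078 with 1 symbol, 550 with several, 2018 with none) and RefSeq gene IDs, with 0 symbols updated.

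The 2 stages were compared with limma 3.58.1 (R 4.3.3), 2-sided, with stage as the sole term, moderated variances (5.78 prior degrees of freedom) and no filter, with Benjamini-Hochberg adjustment over all probe sets. Pairs of probe sets were tested in the same way on within-array differences. A gene was represented by its probe set with the highest mean. The code was run on simulated arrays with few planted changes, a setting unlike these data, so that run does not bear on the calls above. The members, lists and alternatives were chosen with earlier results of these data known. All members were named, and from each list the called gene with the largest rise and with the largest fall, besides Cnot9 and Btg4. Alternatives were 4 scalings between arrays, each array left out, the replicate number as a block, the variance prior, a filter on dim probe sets, and the probe set that stands for a gene. Array number limits the precision.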

Additional observations from a re-analysis of the deposited data

How the results depend on the processing

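The number of the 29 probe sets called higher, 4 as reported, was 16 once array medians were equal, 12 under quantile normalization, 0 with the hybridization controls and 0 with the poly-A controls made equal, and 1 with no moderation of the variance (Cnot7 1460665_a_at). Over all probe sets, the 4 scalings called 55.5%, 34.8%, 0.48% and 0.3% higher. The share of all probe sets called without moderation is not given here. The number called lower, 12 as reported, was 4, 5 and 24 with equal medians, quantile normalization and equal poly-A controls (19.9%, 22.1% and 84.9% of all probe sets). The 11 called pairs became 7 to 9 when 1 array was left out, and the share of all pairs called in those fits is not given here. The catalytic minus scaffold difference of -0.01 was 0.73 with the mean over a gene's probe sets and 0.23 without types _s_at and _x_at. In the other alternatives each count was within 1.5 times its reported value. Among probe sets called as deposited or under the scaling, the sign turned with equal array medians for Cnot6 1426682_at (0.13) and 1426684_at (0.49), Cnot6l 1425481_at (0.57), Cnot7 1423641_s_at (0.50), Cnot2 1454602_s_at (0.10) and 1445017_at (0.55), Cnot3 1441465_at (0.61), Cnot10 1433882_at (0.01), Cnot11 (0.12), Cnot4 1421000_at (0.52) and Btg4 (0.57). After quantile normalization it turned for Cnot6 1426682_at (0.18), Cnot3 1441465_at (0.39) and Cnot4 1421000_at (0.55). With equal hybridization controls it turned for 0, and with equal poly-A controls for Cnot6 1426685_a_at (-0.61), Cnot6l 1425480_at (-0.18) and 1434311_at (-0.74), Cnot7 1460665_a_at (-0.40), Cnot8 1451102_at (-0.11) and 1421135_a_at (-0.62), Cnot2 1454603_a_at (-0.12), Cnot3 1435965_at (-0.52), Cnot4 1450083_at (-0.81), Pan2 (-0.38) and Nanos1 (-0.21). The sign of probe sets called under neither turned for 2, 6, 6 and 1 with equal medians, quantile normalization, equal hybridization controls and equal poly-A controls. All scalings but quantile normalization shift the probe sets of an array by 1 amount, and which scale is right was not tested. The title of the first array of each stage held no number, and that array was numbered 1 here. Replicate numbers did not pair the arrays: the correlations of same-numbered deviations from the stage means were 0.09, 0.03 and 0.03. With the replicate block, 4 probe sets were called higher, 12 lower, and 11 pairs differed, as without it. The samples carry only 3 arrays per stage, and the signal over background was not available from the values used here.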

Other observations

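Probe sets of the same gene shared their order across arrays in places. The 3 GV arrays had the same order on the 2 steeply falling Cnot4 probe sets (10.50, 9.74 and 9.54 on 1436645_a_at, 9.75, 8.98 and 8.90 on 1437586_at) and on the Cnot4 probe set that did not fall (9.16, 8.82 and 8.61 on 1450083_at). The other two Cnot4 probe sets had another order in GV, with replicate 2 the lowest on 1421000_at and the highest, at 7.25, on 1420999_at. For Cnot8, MII replicate 2 was the highest MII array on both probe sets, at 10.10 on 1451102_at and 8.43 on 1421135_a_at. These orders over 3 arrays are given as values and were not tested.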
